A study of Mus musculus with 72 samples.

Results

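A set of 10 genes of the antioxidant response and of cysteine supply was followed through mouse lungs exposed to the tobacco nitrosamine NNK and through the tumors that grew in them: Nfe2l2, Nqo1, Gclc, Gclm, Hmox1, Txnrd1, Srxn1, Slc7a11, Osgin1 and Cth. They were the 10 rows of the deposited count table, out of 23930, whose gene name equalled one of these names. All 10 had enough counts to be tested in every comparison. Of these, 3 (Gclc, Srxn1 and Slc7a11) were called higher (edgeR adjusted p under 0.05) in normal-appearing lung at the end of exposure than before. Over all genes 2.50% were called higher there. The calls of Srxn1 and Slc7a11 were lost without lungs rich in a heart muscle gene, and that of Slc7a11 also without its highest lung. At 7 months after exposure Gclc and Cth were called above baseline and Nqo1 and Osgin1 below it, where 12.8% of all genes were called. The Nqo1 call was lost without the highest baseline lung. In the tumors Hmox1 was above the lung of the same animal in 16 of 16 animals (33 of 33 tumors). Nqo1 was below it in 15 of 16 animals (31 of 33 tumors). Between tumor and lung 49.7% of all genes were called on average over the animals.

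All animals were Gprc5a-/- mice, which lack a lung epithelial receptor gene in every group, controls included. Normal-appearing lung was sampled before exposure (baseline, 8 weeks of age, no NNK, 10 animals), at the end of NNK exposure (16 weeks, 10 animals), at 3 months after it (28 weeks, 9 animals) and at 7 months after it (44 weeks, 10 animals). Tumors were dissected out of the lung with a needle: 4 tumors of 3 animals at the end of exposure, 6 tumors of 4 animals at 3 months and 23 tumors of 9 animals at 7 months. Each tumor was set against the normal-appearing lung of its own animal. Unexposed animals older than 8 weeks were not analysed here, so time, age and exposure cannot be told apart.

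Total counts ran from 7459147 to 21822522 per library, and 15644 to 18645 genes had at least 1 count. Gprc5a itself had at most 4 counts in any library and 0 in 41 of 72. The assay reads 1 amplicon per gene, so levels are compared between libraries and not between genes. Levels are CPM, counts scaled to the size of each library with TMM factors, and changes are log2 fold changes with their SE. A gene is called changed where the Benjamini-Hochberg adjusted p of edgeR's quasi-likelihood test was under 0.05. Defining lung markers were present: the alveolar type 2 gene Sftpc lay at 2317 CPM or above and the club cell gene Scgb1a1 at 5851 CPM or above in every normal lung. In bulk tissue, fewer cells of a type and less RNA per cell cannot be told apart.

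Nfe2l2 encodes Nrf2, a transcription factor that Keap1 holds in the cytoplasm and hands to the proteasome. Oxidants and electrophiles release Nrf2, which then pairs with small Maf proteins on antioxidant response elements and switches on its targets, largely without a change in its own mRNA. Among the members, Gclc and Gclm form the rate-limiting enzyme of glutathione synthesis, and Slc7a11 imports the cystine and Cth makes the cysteine that this enzyme needs. Txnrd1 and Srxn1 keep thioredoxin and peroxiredoxins reduced, Nqo1 reduces quinones, Hmox1 breaks down heme, and Osgin1 is a stress-induced growth inhibitor. Slc7a11 is also a target of Atf4, the factor of the amino acid stress response, and Hmox1 is also controlled by Bach1, a repressor released by heme.

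Promoter sequence is shown for 3 members: Srxn1 and Slc7a11, which rose together at the end of exposure, and Osgin1. Osgin1 was lower in later lungs than at baseline and, on average, higher in tumors than in their own lung. RefSeq windows of GRCm38.p6, from 250 bases before to 50 bases after an annotated start, were matched for 7 of the 10 members, all but Cth, Hmox1 and Gclc. They were searched on both strands for the antioxidant response element core in the spellings TGACNNNGC and TGAGNNNGC. The first stood in 12.4% of 32851 windows of all genes, the second in 17.6%, and at least one of them in 27.8%, or for 30.8% of all genes with a window. A match was present for 6 members (Nfe2l2, Gclm, Txnrd1, Srxn1, Slc7a11 and Osgin1), and these letters were not in the Nqo1 window. Txnrd1 has 3 windows, of which 1 held a match. The 250 bases before the start are given 5′ to 3′ on the gene's own strand, with matches in capitals, from chr2:152105274-152105523 (plus strand) for Srxn1, chr3:50443614-50443863 (minus strand) for Slc7a11 and chr8:119436897-119437146 (plus strand) for Osgin1.
Srxn1: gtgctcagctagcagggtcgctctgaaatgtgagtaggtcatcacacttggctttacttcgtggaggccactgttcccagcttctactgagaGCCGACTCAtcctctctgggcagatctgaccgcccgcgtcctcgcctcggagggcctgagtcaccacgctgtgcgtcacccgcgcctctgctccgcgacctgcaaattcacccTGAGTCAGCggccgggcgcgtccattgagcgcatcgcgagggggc
Slc7a11: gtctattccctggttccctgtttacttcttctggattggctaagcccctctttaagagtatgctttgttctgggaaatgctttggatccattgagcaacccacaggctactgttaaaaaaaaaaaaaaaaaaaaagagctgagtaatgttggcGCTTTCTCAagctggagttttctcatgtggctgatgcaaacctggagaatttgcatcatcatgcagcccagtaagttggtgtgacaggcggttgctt
Osgin1: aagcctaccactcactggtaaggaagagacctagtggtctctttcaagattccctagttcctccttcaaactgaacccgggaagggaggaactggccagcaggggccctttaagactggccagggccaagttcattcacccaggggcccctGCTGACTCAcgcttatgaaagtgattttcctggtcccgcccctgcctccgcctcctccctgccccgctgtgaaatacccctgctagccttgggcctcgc
The Srxn1 window held 3 matches, at -158 (read on the other strand as TGAGTCGGC), at -45 (TGAGTCAGC) and, past the start, at 28 (on the other strand as TGACCTAGC). The Slc7a11 match lay at -97 and the Osgin1 match at -99, both on the other strand, as TGAGAAAGC and TGAGTCAGC. The spelling TGAGTCAGC in Srxn1 and Osgin1 overlaps TGANTCA, the site of AP-1 factors, which stood in 7.81% of all windows.

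**Figure D1:**
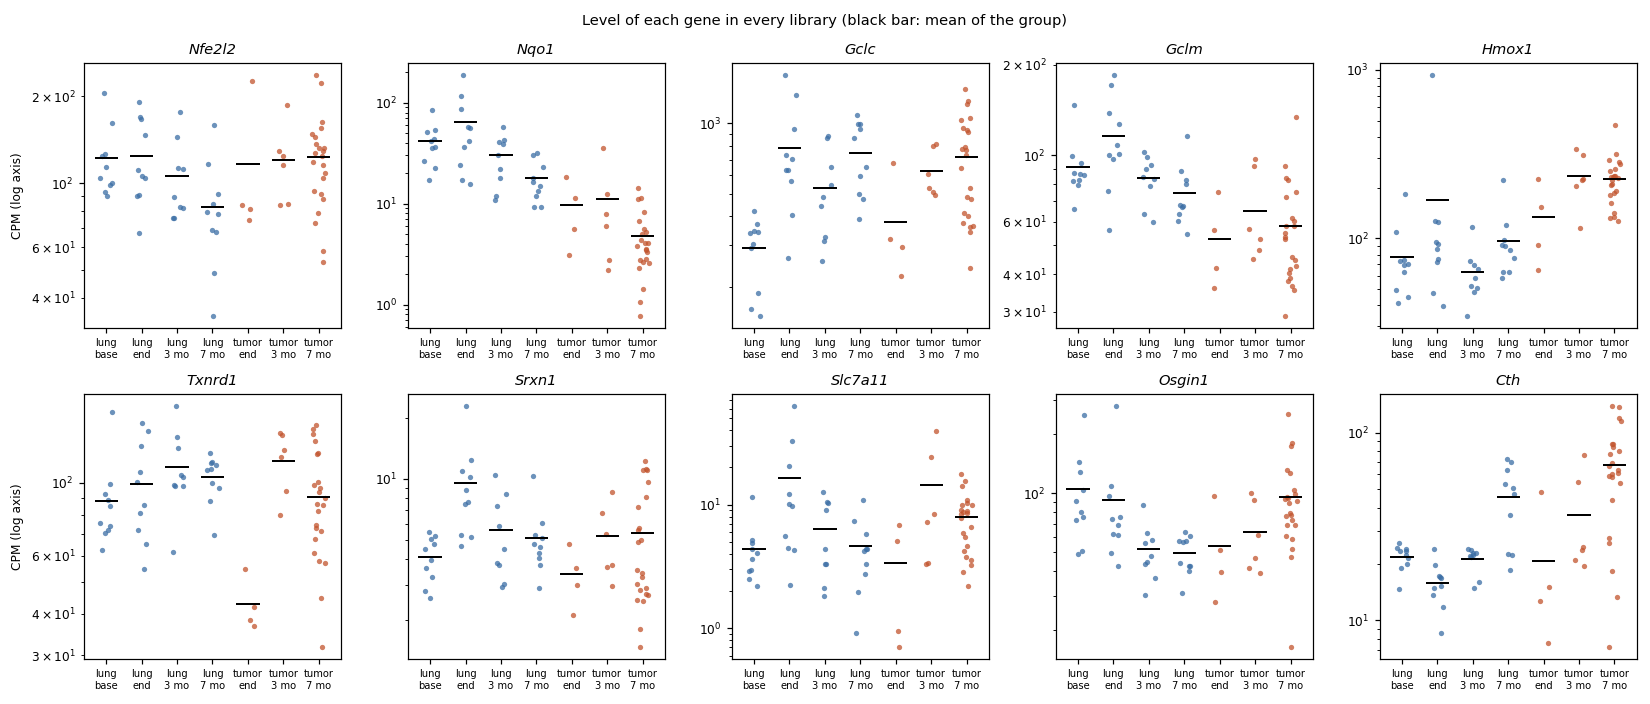
Level of each of the 10 genes in every library, in CPM on a log axis, by group (base, baseline; end, end of exposure; mo, months after exposure), with normal lungs in blue, tumors in red and the mean of the group as a black bar. Gclc rose from 291 to 781 CPM on average at the end of exposure, Cth was highest in 7-month lungs and tumors, and Nqo1 was lowest in 7-month tumors.

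Nfe2l2 mRNA did not pass the test in any comparison between lung times. Its level ran from 90.2 to 205 CPM at baseline (median 109), from 67.1 to 191 at the end of exposure (median 109), from 75.5 to 177 at 3 months (median 89.7) and from 34.7 to 159 at 7 months (median 78.9). The ranges overlapped at all 4 times, with 7 of 10 lungs at 7 months below the lowest baseline lung. The log2 difference from baseline was 0.02 ± 0.21 at the end of exposure and -0.56 ± 0.21 at 7 months (edgeR adjusted p = 0.971 and 0.0707).

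At the end of exposure, 3 of 10 members were called higher than baseline and none lower, where 4.11% of all 14907 genes were called and 2.50% were called higher. The median log2 change over the 10 members was 0.48, against -0.0023 over all genes. The comparison sets lungs at the end of NNK exposure against younger, unexposed lungs, so age and exposure cannot be told apart in it. The clearest of the 3 was Gclc, the catalytic subunit of glutamate-cysteine ligase. Gclc ran from 150 to 422 CPM at baseline (median 321) and from 265 to 1611 CPM at the end of exposure (median 668). Of the 10 exposed lungs, 8 lay above the highest baseline lung. The log2 change was 1.41 ± 0.27 (edgeR adjusted p = 0.000776), and it stayed called under each of 29 alternatives run.

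Srxn1, sulfiredoxin, which repairs overoxidized peroxiredoxins, ran from 2.58 to 5.49 CPM at baseline (median 4.24) and from 4.64 to 22.9 CPM at the end of exposure (median 8.22). Here 7 of 10 exposed lungs lay above every baseline lung. That made a log2 change of 1.20 ± 0.26 (edgeR adjusted p = 0.00387). Slc7a11, the cystine importer, ran from 2.21 to 11.4 CPM at baseline (median 3.83) and from 2.26 to 62.6 CPM at the end of exposure (median 9.93). The exposed lungs spread widely, 4 of 10 above the highest baseline lung, and the log2 change was 1.88 ± 0.47 (edgeR adjusted p = 0.0136). This call rested on few lungs: without the highest, end-of-exposure replicate 8, it was 1.34 with adjusted p = 0.0723, and by limma-voom 1.35 with adjusted p = 0.0958. Leaving out the lungs with over 300 CPM of the heart muscle gene Myh6 (baseline replicates 1, 2 and 9, end-of-exposure replicate 1 and 3-month replicate 6) also ended the calls of Srxn1 (0.93, adjusted p = 0.0564) and Slc7a11 (1.55, adjusted p = 0.143).

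The partner subunit Gclm did not follow Gclc past the threshold. It ran from 66.1 to 147 CPM at baseline and from 56.1 to 185 CPM at the end of exposure, a log2 difference of 0.34 ± 0.16 (edgeR adjusted p = 0.273). Txnrd1, cytosolic thioredoxin reductase, differed by 0.15 ± 0.17, Nqo1 by 0.62 ± 0.36, Osgin1 by -0.20 ± 0.27 and Cth by -0.47 ± 0.19, with edgeR adjusted p from 0.18 to 0.739. Hmox1 depended on 1 library. Its median was 70 CPM at baseline and 89.2 CPM at the end of exposure, and replicate 1 stood at 931 CPM above 39.8 to 127 CPM in the other 9 exposed lungs. The log2 difference was 1.11 ± 0.40 (edgeR adjusted p = 0.119) and 0.11 without that lung. The same lung was also the highest of its group for Gclc (1611 CPM), Srxn1 (22.9 CPM) and Osgin1 (278 CPM).

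Few cell type markers were called at the end of exposure, where 4.11% of all genes were called (2.50% higher and 1.61% lower). No gene of the alveolar type 2, ciliated, alveolar macrophage, neutrophil or cardiac lists was called, against 1 of 6 club cell genes (Scgb1c1, lower) and 1 of 6 endothelial genes (Kdr, lower). The summed level of the 6 club cell genes ran from 39515 to 75678 CPM at baseline and from 23077 to 86433 CPM at the end of exposure. The summed level of the 5 cardiac genes ran from 205 to 5288 CPM at baseline and from 250 to 1224 CPM at the end of exposure. Their part in the changes of the members was not tested beyond the alternative without Myh6-high lungs.

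By 3 months after exposure only Osgin1 was called against baseline, 1 of 10 members where 1.72% of all genes were called and 0.637% were called lower. Osgin1 ran from 49.3 to 251 CPM at baseline (median 85.3) and from 30.2 to 87.5 CPM at 3 months (median 47.6), a log2 change of -1.02 ± 0.28 (edgeR adjusted p = 0.0471). That call did not hold without baseline replicate 10, the highest lung at 251 CPM (-0.77, adjusted p = 0.183), and leaving out any one of 14 lungs ended it. Gclc at 3 months ran from 257 to 884 CPM (median 484), between its levels at the other times, with a log2 difference from baseline of 0.85 ± 0.27 (edgeR adjusted p = 0.103). Set directly against the end of exposure, no member was called at 3 months by edgeR, where 1.01% of all genes were. An unadjusted p under 0.05 was seen for 8 of 10, and the share of all genes under that level was not counted. DESeq2 and limma-voom also called 0 members there. The log2 differences included -1.41 ± 0.42 for Hmox1, -1.36 ± 0.48 for Slc7a11, -1.07 ± 0.37 for Nqo1 and -0.78 ± 0.26 for Srxn1. Without end-of-exposure replicate 1 that of Hmox1 was -0.41 (edgeR adjusted p = 0.546).

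At 7 months, 4 of 10 members were called against baseline, Gclc and Cth higher and Nqo1 and Osgin1 lower, where 12.8% of all genes were called (7.52% higher and 5.31% lower). The comparisons with baseline share the same 10 baseline lungs. Gclc was again high, from 391 to 1088 CPM (median 759), with 9 of 10 lungs above the highest baseline lung and a log2 change of 1.36 ± 0.27 (edgeR adjusted p = 0.00077). Cth encodes cystathionine gamma-lyase, the last step of the path that turns methionine into cysteine. It ran from 14.7 to 26 CPM at baseline (median 22.9), from 8.62 to 24.1 CPM at the end of exposure (median 16.1), from 14.9 to 24 CPM at 3 months (median 22.3) and from 18.5 to 72.4 CPM at 7 months (median 49.2). At 7 months 7 of 10 lungs lay above every lung of the other times, and the other 3 lay at 18.5, 22.3 and 22.7 CPM. The log2 change from baseline was 1.06 ± 0.19 (edgeR adjusted p = 0.000359).

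Nqo1, the quinone reductase, ran from 17.3 to 84.6 CPM at baseline (median 39.1) and from 9.25 to 31.6 CPM at 7 months (median 15.7). Its log2 change was -1.23 ± 0.37 (edgeR adjusted p = 0.023), and 6 of 10 lungs lay below the lowest baseline lung. It was no longer called without baseline replicate 5, the highest lung (-1.03, adjusted p = 0.062), or without the 7-month lungs under 9000000 counts, replicates 4 and 5 (-1.12, adjusted p = 0.0515). Osgin1 ran from 31 to 63.8 CPM at 7 months (median 50.1), with 5 of 10 lungs below every baseline lung. Its log2 change was -1.09 ± 0.27 (edgeR adjusted p = 0.00731), and it stayed called under each of 29 alternatives. The other 6 members were not called against baseline. Slc7a11 ran from 0.908 to 10.9 CPM (median 4.31) at 7 months, with a log2 difference of 0.04 ± 0.47 (edgeR adjusted p = 0.962).

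Against the end of exposure, 6 of 10 members were called at 7 months, where 5.75% of all genes were called (3.27% higher and 2.48% lower). Cth was higher by 1.53 ± 0.20 (edgeR adjusted p = 7.23e-06). Lower were Nqo1 by -1.84 ± 0.37, Slc7a11 by -1.84 ± 0.47, Srxn1 by -0.90 ± 0.26, Osgin1 by -0.89 ± 0.27 and Gclm by -0.63 ± 0.16, with edgeR adjusted p from 0.00182 to 0.0434. Cth and Nqo1 kept their call under each of 29 alternatives. With only these 2 times in the fit 2 members were called, Cth and Nqo1. Leaving out 1 lung ended the call of Osgin1 for 9 of 20 lungs and that of Srxn1 for 5 of 20, and 4 and 2 of 9 other alternatives did so too. The values without end-of-exposure replicate 1 were -0.66 for Srxn1 and -0.52 for Osgin1 (adjusted p = 0.0871 and 0.172). Slc7a11 was not called without replicate 8 (-1.30, adjusted p = 0.0723). For Gclc the log2 difference was -0.05 ± 0.26 (edgeR adjusted p = 0.935). Between 3 and 7 months Cth was the only called member, by 1.11 ± 0.20 (edgeR adjusted p = 0.0157), where 0.0537% of all genes were called, 0.0335% higher and 0.0201% lower. That call was lost without 7-month replicate 8 (1.02, adjusted p = 0.0616) and with only these 2 times in the fit (1.12, adjusted p = 0.174).

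Some cell type markers were called between baseline and 7 months, where 12.8% of all genes were called (7.52% higher and 5.31% lower). Lower were 2 of 6 club cell genes (Cyp2f2 and Bpifa1), 3 of 5 cardiac genes, 3 of 6 fibroblast genes (median -0.88) and 1 of 6 endothelial genes, and higher were 3 of 8 alveolar type 2 genes, 2 of 5 alveolar macrophage genes (Marco and Cd68), 6 of 6 neutrophil genes and 3 of 3 erythroid genes. The club sum ran from 11588 to 133999 CPM and the alveolar type 2 sum from 14308 to 60724 CPM at 7 months, against 39515 to 75678 CPM and 13517 to 24085 CPM at baseline. Their part in the changes of Gclc, Cth, Nqo1 and Osgin1 was not tested.

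**Figure D2:**
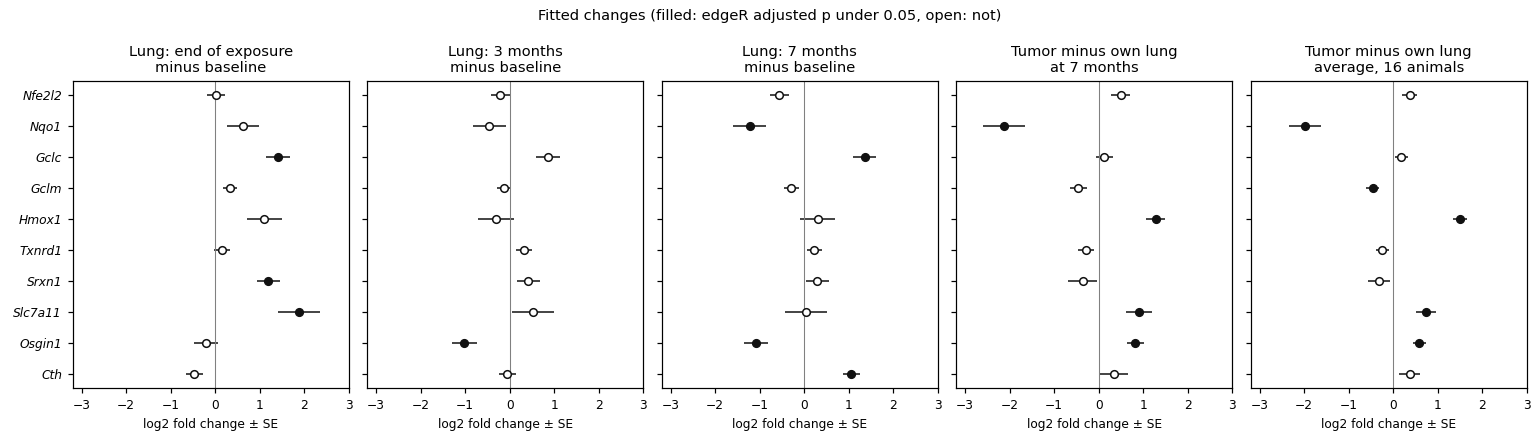
Fitted log2 fold change with its SE for each of the 10 genes (rows) in 5 comparisons (panels), filled where the edgeR adjusted p was under 0.05 and open where it was not. Gclc is shifted to the right of 0 in lung at the end of exposure (1.41) and at 7 months (1.36), and Nqo1 and Hmox1 lie on opposite sides of 0 in tumors (-1.98 and 1.50 on average).

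Tumors were compared with the lung of the same animal, which asks how the lesion differs from the tissue around it. Averaged over the 16 animals, 5 of 10 members were called, where 49.7% of all 15457 genes were called (24.3% higher and 25.4% lower), a share close to that of the members. Higher were Hmox1, Slc7a11 and Osgin1, and lower were Nqo1 and Gclm. The median log2 change over the members was 0.27, against -0.0098 over all genes. By time, 1 of 10 members was called, higher, at the end of exposure, where 4.61% of all genes were called (1.97% higher and 2.65% lower). At 3 months 2 of 10 were called, both higher, against 19.7% of all genes (9.52% higher and 10.2% lower). At 7 months 3 were called higher and 1 lower, against 37.8% of all genes (18% higher and 19.8% lower).

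Hmox1, heme oxygenase, was higher in the tumor than in its own lung in 16 of 16 animals. In the lungs at the end of exposure with a tumor it stood at 47.5, 39.8 and 72.1 CPM, and in their 4 tumors at 64.4, 91.2, 224 and 154 CPM. At 3 months the 4 lungs stood at 50.4, 34.8, 52.4 and 66.1 CPM and the 6 tumors ran from 114 to 338 CPM (median 223), 5 of them above all 9 lungs of that time. At 7 months the tumors ran from 127 to 473 CPM (median 229) against 57.8 to 223 CPM in the 10 lungs (median 87.7), and 12 of 23 tumors lay above every lung. The log2 change was 1.43 ± 0.39 at the end of exposure, 2.05 ± 0.34 at 3 months and 1.28 ± 0.22 at 7 months (edgeR adjusted p = 0.0471, 0.00143 and 0.000408). The average was 1.50 ± 0.17 (edgeR adjusted p = 3.59e-06). The first of these calls was lost when any 1 of the 3 animals was left out (0.90 to 1.80, adjusted p 0.0755 to 0.291), and the later ones held under each alternative run.

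Nqo1 was lower in the tumor in 15 of 16 animals, and in 23 of 23 tumors at 7 months. In the 3 animals at the end of exposure, the lungs stood at 17.2, 58.1 and 86.7 CPM and the 4 tumors at 18.4, 3.1, 11.3 and 5.62 CPM. At 3 months the 6 tumors ran from 2.2 to 35.8 CPM (median 6.91). The highest, 3-month tumor replicate 1, was the only one above its own lung (17.8 CPM) at that time. At 7 months the tumors ran from 0.776 to 14.4 CPM (median 3.79) against 9.25 to 31.6 CPM in lung, and 20 of 23 lay below every lung of that time. For Nqo1 the log2 change was -2.13 ± 0.47 at 7 months (edgeR adjusted p = 0.00231) and -1.98 ± 0.36 on average (edgeR adjusted p = 0.000248). The earlier times gave -2.32 ± 0.84 and -1.37 ± 0.75, which were not called (edgeR adjusted p = 0.107 and 0.198). At the end of exposure DESeq2 called it (-2.37, adjusted p = 0.0124), and so did edgeR without the replicate block (-2.54, adjusted p = 0.0452).

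Slc7a11 was higher in the tumor in 9 of 9 animals at 7 months and lower in 3 of 3 animals at the end of exposure. At the end of exposure the 3 lungs stood at 2.26, 5.54 and 10.2 CPM and the 4 tumors at 0.943, 0.709, 5.07 and 6.84 CPM. At 3 months the tumors ran from 3.32 to 39.8 CPM (median 7.82), and at 7 months from 2.21 to 17.6 CPM (median 8.45), where lungs ran from 0.908 to 10.9 CPM. The tumors and lungs of each time overlapped. The log2 change was -0.69 ± 0.51 at the end of exposure (edgeR adjusted p = 0.478), 1.40 ± 0.47 at 3 months (adjusted p = 0.0445), 0.90 ± 0.29 at 7 months (adjusted p = 0.0222) and 0.73 ± 0.22 on average (adjusted p = 0.0118). The 3 calls each turned on a few animals or on the scaling. At 3 months the call was lost without the animal of lung replicate 1 (0.96, adjusted p = 0.229) or that of replicate 3 (0.90, adjusted p = 0.266), and at 7 months without that of replicate 1 (0.79, adjusted p = 0.0521) or replicate 8 (0.83, adjusted p = 0.0531). Without the replicate block the 3 later values were 1.61, 0.75 and 0.73 with adjusted p = 0.103, 0.199 and 0.0752. Scaled by total counts, which put the median of all genes at -0.37, -0.24 and -0.24, the 3 values were 1.09, 0.65 and 0.50 with adjusted p = 0.103, 0.0973 and 0.0784.

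The difference in the tumor effect of Slc7a11 between 7 months and the end of exposure was 1.59 ± 0.59 (unadjusted p = 0.0148, edgeR adjusted p = 0.536), a contrast added after the values were seen. No gene was called in that contrast (0% of 15457), and 2 of 10 members had an unadjusted p under 0.05. No gene was called by edgeR either for 7 months against the mean of the earlier times, where 0 of 10 members had an unadjusted p under 0.05. The shares of all genes under that unadjusted level were not counted. DESeq2 and limma-voom called 0 members in both contrasts. Over all genes limma-voom called 0 in both, and DESeq2 called 87 in the first and 6 in the second.

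Osgin1 was higher in the tumor in 13 of 16 animals and in 21 of 23 tumors at 7 months, the reverse of its direction in lung over time. The 7-month tumors ran from 16.5 to 252 CPM (median 88.7), 18 of 23 above every lung of that time (31 to 63.8 CPM). Baseline lungs ran from 49.3 to 251 CPM of Osgin1 (median 85.3). The log2 change was 0.82 ± 0.20 at 7 months (edgeR adjusted p = 0.00396) and 0.58 ± 0.15 on average (adjusted p = 0.00344). With total counts the average was 0.35 with adjusted p = 0.0555. At the end of exposure the 4 tumors stood at 39.7, 51.2, 96.8 and 27.9 CPM beside lungs at 42.6, 61 and 49.6 CPM, a log2 difference of -0.02 ± 0.34 (edgeR adjusted p = 0.988). Gclm, the modifier subunit, was lower in 13 of 16 animals. Its 7-month tumors ran from 29.1 to 134 CPM (median 53.4) against 54.5 to 116 CPM in lung, 12 of 23 below every lung, and the average log2 change was -0.47 ± 0.14 (edgeR adjusted p = 0.0108). At 7 months alone it was -0.46 ± 0.19 (edgeR adjusted p = 0.0621), and 7 of 18 alternatives called it.

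The other 5 members were not called in any tumor comparison against own lung. Gclc ran from 239 to 1401 CPM in the 7-month tumors (median 730) and from 391 to 1088 CPM in the lungs, a log2 difference of 0.13 ± 0.20 (edgeR adjusted p = 0.655). At 3 months Gclc was higher in 6 of 6 tumors, by 0.83 ± 0.30 (edgeR adjusted p = 0.0567), and DESeq2 and limma-voom called it (0.79 and 0.82, adjusted p = 0.0402 and 0.0465). Nfe2l2 itself was higher in 24 of 33 tumors, by 0.50 ± 0.22 at 7 months and 0.37 ± 0.16 on average (edgeR adjusted p = 0.0814 and 0.0694). The average differences were 0.37 ± 0.23 for Cth, -0.24 ± 0.14 for Txnrd1 and -0.32 ± 0.24 for Srxn1 (edgeR adjusted p = 0.2, 0.153 and 0.284).

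**Figure D3:**
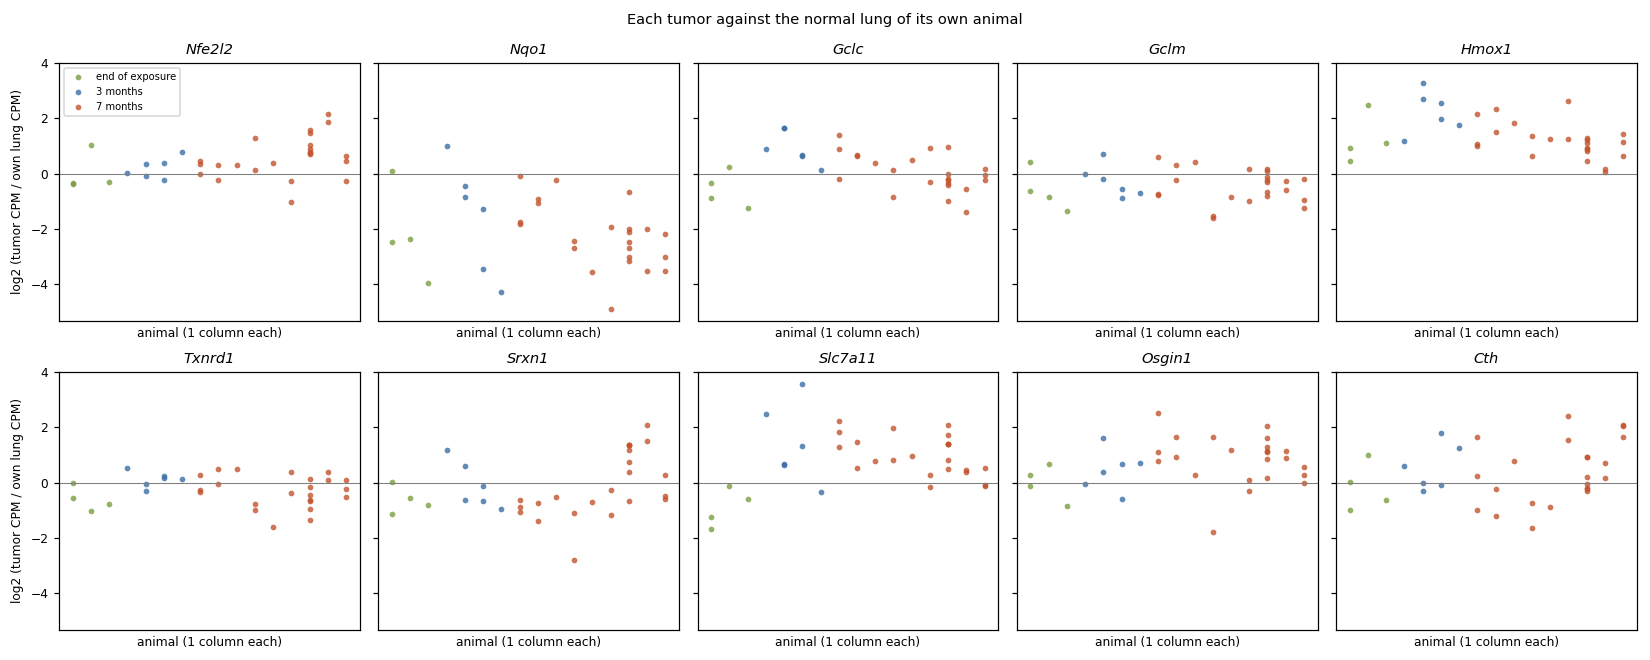
Log2 ratio of each tumor's CPM to that of its own animal's normal lung, 1 column of points per animal and 1 panel per gene, colored by time, with a line at 0 where tumor and lung are equal. For Hmox1 33 of 33 points lie above the line, for Nqo1 31 of 33 lie below it, and for Slc7a11 the 4 end-of-exposure points lie below it while 20 of 23 at 7 months lie above.

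Cell type markers also differed between tumor and lung. On average over the animals 6 of 6 club genes and 6 of 6 ciliated genes were lower, with median log2 changes of -3.06 and -3.99, and 7 of 8 alveolar type 2 genes were higher (median 1.85). Of the alveolar macrophage genes 3 of 5 were higher (Marco, Cd68 and Mrc1), as were 4 of 5 interstitial macrophage and monocyte genes (median 0.81). Lower were 5 of 5 cardiac genes (median -5.43), 3 of 3 erythroid genes, 4 of 6 endothelial genes, 2 of 6 lymphocyte genes and 2 of 6 neutrophil genes, while 3 of 6 fibroblast genes were higher and 3 lower. These shares stand beside 49.7% called over all genes. By time, the genes called were 1, 2 and 5 of 6 club genes, 1, 1 and 6 of 6 ciliated genes and 1, 6 and 6 of 8 alveolar type 2 genes at the end of exposure, 3 months and 7 months. Over all genes 4.61%, 19.7% and 37.8% were called at these times. The club sum ran from 615 to 50061 CPM in the 7-month tumors (median 6663) against a median of 64917 CPM in the lungs. The alveolar macrophage sum ran from 181 to 809 CPM (median 314) against a median of 196 CPM. The part of these cell types in the fall of Nqo1 or the rise of Hmox1 was not tested. The 3-month tumor with the most Nqo1, replicate 1, had a club sum of 8581 CPM, and replicate 2, with 7.87 CPM of Nqo1, had a club sum of 54861 CPM, inside the range of the baseline lungs. The 7-month tumors with the most Nqo1, replicates 23 and 3 (14.4 and 11.3 CPM), had club sums of 48893 and 50061 CPM. At that time replicate 11, with 8.24 CPM of Nqo1, had a club sum of 782 CPM. At the end of exposure the tumor with the most Nqo1, replicate 1 (18.4 CPM), had the highest club sum of its group (23815 CPM). Without the tumors over 200 CPM of the ciliated gene Foxj1 (3-month replicate 2 and 7-month replicate 22), the calls of Hmox1, Nqo1, Slc7a11, Osgin1 and Gclm on average over the animals were kept.

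Tumors sampled at the same time differed from each other. Over the 23 tumors at 7 months, the SD of log2 CPM ran from 0.452 for Hmox1 and 0.526 for Gclm to 1.03 for Nqo1 and 1.08 for Cth. Within animals with 2 or more tumors (21 tumors of 7 animals) the SD was 0.475 for Hmox1, 0.952 for Nqo1 and 0.693 for Cth. Cth ran from 7.24 to 139 CPM in these tumors. In the animal with the most tumors, 7 tumors beside a lung at 72.4 CPM, Cth ran from 58.4 to 139 CPM, and in the 2 tumors of another animal it was 7.24 and 13.3 CPM beside a lung at 22.3 CPM. Srxn1 differed between animals: the mean was 8.39 CPM in the 7 tumors of one animal and 10.2 CPM in the 2 tumors of another. Their lungs stood at 4.32 and 2.88 CPM, while in each of the other 7 animals the tumors averaged below their lung. Single tumors departed from this. Replicate 23, of the animal with 7 tumors, stood at 2.71 CPM, below its lung. Replicate 22, of one of the other 7 animals, stood at 5.58 CPM, above its lung at 4.60 CPM. The SD of log2 CPM of Srxn1 was 0.668 within animals and 0.732 between animal means.

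Tumors at 7 months were also set directly against the earlier tumors, each animal's tumors summed. By edgeR no gene was called of 15264 (0%), where DESeq2 called 401 and limma-voom 6. An unadjusted p under 0.05 was seen for 4 of 10 members, and the share of all genes under that level was not counted. The 4 were Nqo1 (-1.33 ± 0.50), Cth (0.95 ± 0.44), Gclc (0.64 ± 0.26) and Osgin1 (0.61 ± 0.24), with edgeR adjusted p from 0.271 to 0.371. Of the members DESeq2 and limma-voom called 0. With each tumor library on its own, which treats tumors of an animal as separate samples, Cth was called (1.27, edgeR adjusted p = 0.0335).

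Other genes of the pathway were counted from lists chosen with earlier results of these data known. Of 8 tested genes of the Atf4 arm, which answers amino acid shortage, 3 were higher and none lower at the end of exposure (median 0.39), where 2.50% of all genes were called higher. They were Trib3, a stress pseudokinase (1.39 ± 0.29, edgeR adjusted p = 0.00303), Sesn2, a stress-induced brake on mTORC1 (0.85 ± 0.19, adjusted p = 0.00412), and Psat1, an enzyme of serine synthesis (0.45 ± 0.13, adjusted p = 0.0454). At 7 months only Ddit3, 1 of 8, was higher than baseline (0.79 ± 0.20, edgeR adjusted p = 0.00824). There 12.8% of all genes were called and 7.52% were called higher. In 7-month tumors 5 of 8 were higher than in lung and none lower (median 0.92), where 37.8% of all genes were called and 18% were called higher. Those with the lowest p were Psat1 (2.01 ± 0.21, adjusted p = 9.46e-06), Sesn2 (1.05 ± 0.13), the mitochondrial serine enzyme Shmt2 (0.80 ± 0.13) and Trib3 (1.48 ± 0.40). On average over the 16 animals 5 of 8 were also called higher, where 49.7% of all genes were called and 24.3% were called higher, with Psat1 at 1.77 ± 0.15.

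Of 13 tested genes of cysteine and glutathione supply, 2 rose and 2 fell at the end of exposure, where 4.11% of all genes were called. Ggt1 and Chac1, which both break glutathione down, rose by 1.74 ± 0.36 and 1.01 ± 0.30 (edgeR adjusted p = 0.00226 and 0.0428). Cbs, the step before Cth, fell by 1.26 ± 0.27 on the log2 scale, and Mpst, which takes sulfur from a cysteine product, fell by 0.51 ± 0.15 (edgeR adjusted p = 0.00401 and 0.0399). Against baseline at 7 months 4 were higher and 2 lower, where 12.8% of all genes were called, led by Ggt5 (0.84 ± 0.19), Ggt1 (1.53 ± 0.35), Mpst (-0.58 ± 0.15) and Chac1 (0.97 ± 0.30). Ggt1 was also higher at 3 months (1.81 ± 0.36, edgeR adjusted p = 0.00317), the only one of the 13 called there, where 1.72% of all genes were called. In 7-month tumors 4 were higher and 3 lower, 7 of 13 where 37.8% of all genes were called. Ggt5, which cleaves glutathione conjugates, was higher by 2.06 ± 0.25 (edgeR adjusted p = 2.72e-05), while Cbs, Cdo1, which oxidizes cysteine away, and the glutamine carrier Slc1a5 were lower by -2.35 ± 0.31, -2.07 ± 0.36 and -0.60 ± 0.15. Slc3a2, the partner chain of Slc7a11, was named after its values were seen and was higher by 0.45 ± 0.16 (edgeR adjusted p = 0.0351).

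The 9 tested regulators of Nrf2 showed no call at the end of exposure. At 7 months 1 of 9 was lower than baseline, where 12.8% of all genes were called and 5.31% were called lower. It was Sqstm1, the adaptor that removes Keap1 (-0.64 ± 0.14, edgeR adjusted p = 0.00182), itself also an Nrf2 target. In 7-month tumors the related factor Nfe2l1 was higher (0.47 ± 0.12), Nfe2l3 lower (-2.95 ± 0.81) and the Keap1 ligase scaffold Cul3 higher (0.69 ± 0.25), with edgeR adjusted p from 0.00573 to 0.0362. These 3 of 9 stand beside 37.8% called over all genes. On average over the animals 4 were higher and 1 lower, a share close to the 49.7% called over all genes, with Bach1 among the higher (0.37 ± 0.13, edgeR adjusted p = 0.0245).

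The 19 other tested Nrf2 targets moved in both directions. At the end of exposure 1 was higher and 1 lower, where 2.50% and 1.61% of all genes were. Akr1b8, an aldo-keto reductase, was higher (1.49 ± 0.22, edgeR adjusted p = 1.97e-05) and the peroxidase Prdx6 lower (-0.80 ± 0.19, adjusted p = 0.00925). At 7 months 1 was higher than baseline and 5 lower, where 7.52% and 5.31% of all genes were. The median was -0.34, and the leading genes were the glutathione transferase Gsta3 (-1.47 ± 0.23), Prdx6 (-1.23 ± 0.19), the carbonyl reductase Cbr3 (-1.0 ± 0.22) and Akr1b8 (0.80 ± 0.22). In 7-month tumors 5 were higher and 8 lower with a median of 0.017, against 18% higher, 19.8% lower and a median of 0.0070 over all genes. Gsta3 was lower (-1.93 ± 0.33), and Me1 and Taldo1, which supply or spare NADPH, were higher (1.39 ± 0.25 and 0.67 ± 0.13), as was Akr1b8 (0.97 ± 0.19). The edgeR adjusted p of these 4 ran from 0.000383 to 0.00115.

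The animal names hold the letter F or M, which the labels do not define, and both letters occur at every time (20 and 19 lungs). With time in the fit, 1 of 10 members was called between the letters, where 18.4% of all genes were called (8.70% higher and 9.67% lower in M). That member was Nqo1, higher with M by 1.03 ± 0.21 (edgeR adjusted p = 0.00237). At 3 months the 5 lungs with F stood at 17.8, 10.8, 30.2, 22 and 12 CPM and the 4 with M at 57.7, 41, 43.2 and 38.8 CPM, without overlap. At 7 months the means were 11.7 ± 2.48 CPM with F and 23.8 ± 7.03 CPM with M (SD, n = 5 each), again without overlap. How many of all genes separate the letters in this way was not counted. At baseline the means were 38.5 ± 27.3 and 44.3 ± 8.07 CPM (SD, n = 5 each) and the letters overlapped, with F replicate 5 the highest at 84.6 CPM. Slc7a11 differed by 0.77 ± 0.32 (edgeR adjusted p = 0.0857). At 3 months it ran from 1.82 to 4.35 CPM with F and from 9.06 to 12.7 CPM with M. The letters overlapped at the other times: the means at baseline were 5.16 CPM with F and 3.67 CPM with M, the end-of-exposure lungs ran from 2.26 to 33.0 CPM with F and from 5.54 to 62.6 CPM with M, and the 7-month lungs from 0.908 to 5.78 CPM and from 2.73 to 10.9 CPM. DESeq2, limma-voom and the fit without Myh6-high lungs called it (0.76, 0.95 and 1.07, adjusted p = 0.0495, 0.0296 and 0.0239). Beside this, 5 of 6 lymphocyte genes (median -0.99), 1 of 3 erythroid genes and 1 of 4 interstitial macrophage and monocyte genes were lower with M. Higher with M were 3 of 6 club genes and 3 of 8 alveolar type 2 genes. Their part was not tested.

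**Figure D4:**
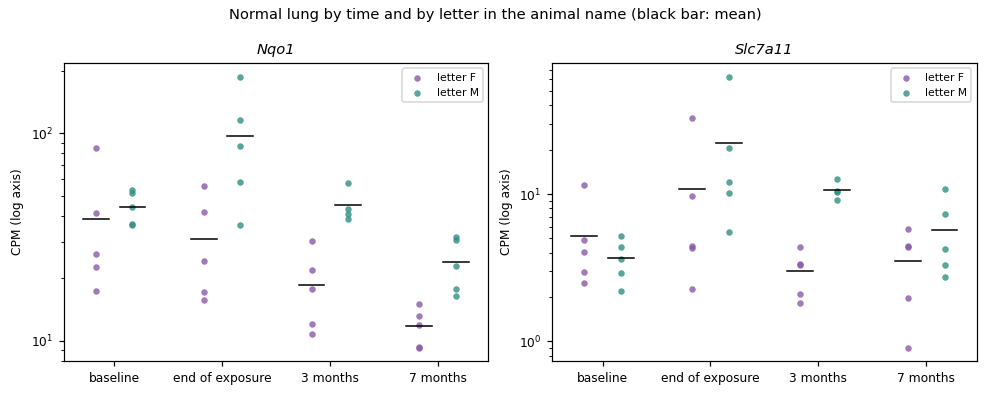
Nqo1 and Slc7a11 in each normal lung, in CPM on a log axis, by time and by the letter F or M in the animal name, with the mean as a black bar. At 3 months the letters do not overlap for either gene, and at 7 months they do not overlap for Nqo1 (9.25 to 14.9 CPM with F, 16.4 to 31.6 CPM with M). Slc7a11 was not called between the letters (edgeR adjusted p = 0.0857), and the share of all genes without overlap was not counted.

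Whether the Nfe2l2 level tracked each of its targets between animals was examined over 39 lungs, as deviations of log2 (CPM + 1) from the mean of the time, and over 16 tumor-to-lung differences, 18 relations in all. Txnrd1 and Gclm passed by Pearson's r in lung. The share of all genes with such an r to Nfe2l2 was not counted. The highest r to Nfe2l2 among 11315 genes were 0.777 for Slc35a2 and 0.760 for Emc4. For Txnrd1 r was 0.467 (permutation p = 0.00242, adjusted 0.0436) and Spearman's rho 0.480 (p = 0.00312, adjusted 0.0562), and r was 0.572 without the 2 lungs farthest from the median of Nfe2l2. Within the times r for Txnrd1 was 0.916 at baseline, 0.803 at the end of exposure, 0.440 at 3 months and -0.339 at 7 months. For Gclm r was 0.454 (permutation p = 0.00529, adjusted 0.0476) and rho 0.451 (p = 0.00658, adjusted 0.0592), and r was 0.422 with adjusted p = 0.123 without the 2 farthest lungs. Within the times it was 0.659, 0.716, 0.418 and 0.0822. At 7 months neither relation was positive beyond 0.0822. None of the 9 relations in tumor-to-lung differences passed, the smallest adjusted permutation p of Pearson's r being 0.26. Within the 7-month differences r ran from -0.932 for Hmox1 and -0.829 for Gclc to 0.699 for Srxn1. In the 7-month lungs it ran from -0.744 for Hmox1 to 0.21 for Osgin1. These values within a time were not tested.

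The genes whose level was most like each member's over the 39 lungs, by the same deviations and among 11315 genes, are given as a description. For Nqo1 they were Il1f9 (r = 0.845) and Slc25a10 (r = 0.83), for Slc7a11 the prostaglandin synthase Ptgs2 (r = 0.773) and Zfp516 (r = 0.715), and for Cth they were Myrip (r = 0.753) and Errfi1 (r = 0.711), an inhibitor of the EGF receptor. For Hmox1 they were Plk3 (r = 0.759) and the stress hormone Gdf15 (r = 0.757), and 0.461 and 0.639 without end-of-exposure replicate 1. Osgin1 was most like Hmox1 (r = 0.721, and 0.581 without that lung) and Sfn (r = 0.682). Nfe2l2 was most like Slc35a2 and Emc4, Gclc like Ooep and Mon1a, Gclm like Slc26a2 and Akip1, Txnrd1 like Cldn10 and Yipf6, and Srxn1 like F3 and Ralgds, with r from 0.646 to 0.777. The lungs share their time and assay, and the F and M lungs enter together.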

How the data were processed

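RNA of 39 normal-appearing lungs and 33 tumors was made into amplicon libraries (Ion AmpliSeq Transcriptome Mouse, 10 ng of total RNA, 8 libraries per Ion Proton chip), per the labels' protocols. The authors deposited whole-number counts of reads per gene. The aligner, like the counting tool and build, is not given in the sources used here. The table held 74 library columns: 72 were matched to samples by name and 2 were not used. For 27 genes the name, stored as a date, was taken from the amplicon name. Total counts ran from 7459147 to 21822522, and nothing says which libraries shared a chip, so p-values measure the spread between animals and libraries together.

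Tests ran in edgeR 4.0.16 (R 4.3.3): filterByExpr, TMM scaling, quasi-likelihood F tests on robust fits and Benjamini-Hochberg adjustment over all genes, with 0.05 as the threshold. The 39 lungs entered 1 fit over 4 times (14907 genes). Tumor counts were summed per animal and paired with that animal's lung through the animal name in the titles, with the animal as a replicate block (16 animals, 15457 genes). After removal of group means, tumor and own lung correlated at -0.181 to 0.505 over 11315 genes (median 0.249, 12 of 16 pairs over 0.1). The 7-month tumors were also tested directly against the earlier ones (15264 genes). Levels are CPM scaled by TMM over all 72 libraries. Relations used log2 (CPM + 1) and 100000 permutations within times. The code was tested on simulated data.

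Alternatives were DESeq2 1.42.0 size factors, total counts alone, no filter, the DESeq2 test, limma-voom (limma 3.58.1), no replicate block, single tumor libraries, the letter of the animal name as covariate, only the 2 groups compared, and sets of libraries left out: lungs over 300 CPM of Myh6, lungs under 9000000 counts, tumors over 200 CPM of Foxj1, tumors titled ADC (a term the labels do not define), and each library or animal in turn. The members, the gene lists and the tests were chosen with earlier results of these data known. All 10 members are described. Of the other lists, up to 4 called genes with the smallest p per comparison are named, and for each member the 2 genes most like it. Of the lists, 9 of 10 regulators, 20 of 23 other targets, 14 of 16 supply genes and 8 of 9 Atf4 genes had a row, and those without one were not analysed here. Promoter sequences are from RefSeq (GRCm38.p6).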

Additional observations from a re-analysis of the deposited data

Results flagged for a closer look

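In 15 of 60 combinations of a member and a group of libraries, 1 library stood apart from the others, by the size of its gap against the range. The 7-month tumors, a group of 23, were not examined by this rule. CPM was not logged and the members share the same libraries, so no rate expected by chance is given. Baseline lung replicate 5 was such a library for 4 members, at 84.6 CPM of Nqo1 (17.3 to 53.2 in the others), 147 CPM of Gclm, 163 CPM of Txnrd1 and 11.4 CPM of Slc7a11. End-of-exposure lung replicate 1 was one for 3 members, at 931 CPM of Hmox1 (39.8 to 127 in the others), 22.9 CPM of Srxn1 and 278 CPM of Osgin1. Baseline lung replicate 10 was one for Hmox1 (183 CPM) and Osgin1 (251 CPM).

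The others were single values. Hmox1 stood at 117 CPM in 3-month lung replicate 7 and at 223 CPM in 7-month lung replicate 9. Slc7a11 stood at 62.6 CPM in end-of-exposure lung replicate 8, and Srxn1 at 10.3 CPM in 7-month lung replicate 4, a lung with under 9000000 counts. Nfe2l2 stood at 226 CPM in end-of-exposure tumor replicate 3 (74.5 to 84 in the other 3), and Nqo1 at 35.8 CPM in 3-month tumor replicate 1 (2.2 to 12.4 in the other 5).

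The tumor effect on Slc7a11 had opposite directions at 2 times. The median log2 ratio of tumor to own lung was 0.95 at 7 months, with 9 of 9 animals above 0, and -0.57 at the end of exposure, with 3 of 3 below. The direct contrast of these times was not called (1.59 ± 0.59, edgeR adjusted p = 0.536).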

How the results depend on the processing

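No called value changed direction. Of 999 values of single members under alternatives, 901 kept their direction and side of the threshold, 69 lost the call and 29 gained one. Counts of called members moved as follows, and the cause was not tested. At the end of exposure against baseline 3 became 1 without the Myh6-high lungs. At 3 months against baseline 1 became 0 with total counts, without the filter, with limma-voom and without lungs under 9000000 counts. With only the 2 groups in the fit, 7 months against the end of exposure went from 6 to 2 and against 3 months from 1 to 0. For tumors at the end of exposure 1 became 0 with DESeq2 size factors, without the filter and with single tumor libraries, and 2 with DESeq2 and without the replicate block. For tumors at 3 months 2 became 1 with DESeq2 size factors, total counts, no filter or no replicate block. The direct comparison of tumors went from 0 to 1 with single libraries. The letter comparison went from 1 to 2 with DESeq2, limma-voom or without Myh6-high lungs. The relation of Nfe2l2 with Gclm lost its call without the 2 farthest lungs (0.4216) and with total-count CPM (0.4677, adjusted p = 0.0633).

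Leaving out 1 library or animal at a time, the counts of called members ranged from 2 to 3 at the end of exposure and from 0 to 1 at 3 months against baseline, 0 to 1 for 3 months against the end of exposure, 3 to 5 for 7 months against baseline, 4 to 7 against the end of exposure and 0 to 1 against 3 months, and 1 to 2 for the letters. For tumors they ranged from 0 to 0 at the end of exposure, 1 to 2 at 3 months, 3 to 5 at 7 months and 5 to 6 on average. Without the replicate block the tumor calls of Slc7a11 were lost as given with that gene, and no call reversed. Total counts alone put the median of all genes at -0.24 for tumors on average and -0.37 at 3 months. The early tumor comparisons rest on 3 and 4 animals.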
